A study of Mus musculus with 12 samples.

Results

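The 10 genes studied here mark osteoclast formation and bone resorption and were followed in open-chromatin profiles of mouse bone marrow derived macrophages: Tnfrsf11a, Oscar, Nfatc1, Dcstamp, Ocstamp, Ctsk, Acp5, Atp6v0d2, Mmp9 and Calcr. Every peak that the deposited tables assign to one of these gene symbols was taken. This gave 97 of 139999 peaks, in 9 of the 10 genes. Nfatc1 had 22 peaks, Tnfrsf11a 21, Atp6v0d2 18, Mmp9 11, Oscar 10, Ctsk 8, Dcstamp 4, Ocstamp 2 and Calcr 1, and no peak was assigned to Acp5. All 97 peaks were 400 bp wide, so their levels can be set side by side, and all 97 entered the tests. By the tables' annotation 29 lay within 3 kb of a transcript start, 34 in introns, 28 between genes and 6 in exons, untranslated regions or just past a gene.

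Chromatin was profiled by ATAC-seq, in which the transposase Tn5 cuts and tags accessible DNA, in 12 libraries that form 6 groups of 2. The donors were male C57BL/6J mice aged 8 weeks, either left as controls or made diabetic with streptozotocin, a toxin of pancreatic beta cells, injected into the abdomen at 42 to 45 mg/kg per day for 5 days after a 12 h fast. Mice whose non-fasted blood glucose exceeded 16.9 mmol/L were taken as diabetic, and marrow was collected after 6 weeks of hyperglycaemia. The first-phase groups were diabetic and healthy cells, for which no culture time is stated. The rest-phase groups were diabetic-trained and untrained cells, both grown for 7 days in M-CSF at 5 mmol/L glucose. The second-phase groups were the same kinds of cells given LPS at 100 ng/mL together with IFN-γ at 10 ng/mL for 16 h after that culture. RANKL, the signal that starts osteoclast formation, is not named among the agents for these libraries, and the labels call the cells macrophages. The labels do not say whether the 2 libraries of a group came from separate animals, so the p-values below speak of the spread between these libraries alone, and that spread may be technical.

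Osteoclasts arise when macrophage precursors, kept alive by M-CSF, meet RANKL. RANKL binds the receptor RANK, encoded by Tnfrsf11a, and costimulatory receptors such as OSCAR add calcium signals, and together they raise the transcription factor NFATc1. NFATc1 then turns on the genes for cell fusion (Dcstamp, Ocstamp) and for acid and enzyme secretion (Atp6v0d2, Ctsk, Acp5, Mmp9), while the calcitonin receptor gene Calcr marks mature cells.

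Some facts of the libraries bear on every value. In each table the 2 group means are not tied by their headers to diabetic or control cells, so the groups are called A and B, and the 2 libraries behind each mean, whose reads were recovered from it, are called A1, A2, B1 and B2. Depth in peaks ran from 3832347 to 18617444 reads, and the rest-phase A libraries (16002834 and 18617444) were deeper than the rest-phase B libraries (5459236 and 8775958). The first-phase A pair had a variance 1.13 times that expected of sampling alone and was counted as 1 sample, which leaves 3 samples in the first phase and 4 in each later one. The 9 macrophage markers, at the peaks nearest their starts, had summed log2 levels of 10.12 to 10.72 in the first phase and 10.93 to 11.28 in the rest phase, with 4 rising and 1 falling. Cd68 was the most open of them (8.72 to 9.36 in the first phase), whereas Mrc1 was low there, at 4.09 to 4.76. Over the same phases the neutrophil list went from 10.36 to 11.32 down to 7.43 to 8.43, with 7 of its 7 genes falling, and the B cell list from 8.25 to 9.79 down to 6.21 to 7.15, with 5 of 5 falling. The erythroid list lost 3 of 4, the T and NK cell list 2 of the 4 genes with a peak, and the stromal and osteoblast list 2 of 5, with no marker at 0 reads in any library. The part of these other cell types in the phase differences below was not tested, and in bulk libraries fewer cells of a type and less accessible chromatin per cell cannot be told apart.

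Of the libraries labelled second phase, A1 and B1 stood apart from A2 and B2. Over 58458 peaks, A1 correlated at 0.982 with rest-phase A1, and B1 at 0.924 with the same library, while A2 and B2 reached at most 0.817 with any rest-phase library. With the rest-phase B libraries, second-phase B1 correlated at only 0.772 and 0.779. The letters name the columns of each table, and whether a letter means the same arm in all 3 tables is not given by their headers. A list of 10 IFN-γ and LPS response genes, chosen after the values were seen (Irf1, Socs1, Cxcl10, Acod1, Nos2, Gbp2, Gbp5, Ccl5, Il12b and Cxcl9), had summed log2 levels of 9.60 to 9.89 in the rest phase, 9.79 and 10.01 in second-phase A1 and B1, and 11.97 and 12.13 in A2 and B2. In this list 2 of the 4 libraries labelled as stimulated thus lay within or close above the rest-phase range, and second-phase results are given with and without them.

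Levels below are log2 (scaled reads + 1), with reads quantile-scaled over the 12 libraries. For the member peaks, distances run from a peak's nearer edge to the most upstream transcript start that the tables name for the gene. Between the rest phase and the first phase, 36 of the 97 osteoclast-gene peaks rose and 22 fell at a limma adjusted p under 0.05, and 39 did not pass. That is 59.8% called, against 38.8% of all 139557 peaks tested, with 37.1% higher against 19.8% and 22.7% lower against 18.9%. The median difference was 0.32 on the log2 scale over the members and 0.02 over all peaks. The 4 rest-phase libraries lay above all first-phase libraries at 31 member peaks (32.0%, against 18.8% of all peaks) and below them at 20 (20.6%, against 18.9%). The genes differed in direction. Atp6v0d2 had 12 rises and 1 fall, Tnfrsf11a 8 and 0, Ctsk 5 and 0, Dcstamp 3 and 0, and Ocstamp 1 and 0, whereas Mmp9 had 1 rise and 8 falls and Nfatc1 3 and 10, and Oscar had 3 of each. The Calcr peak did not pass. The share of calls that were higher, 51.2% over all peaks, was 66.4% when scaled to total reads and 82.5% in the authors' scaling, with medians of all peaks of 0.30 and 0.74, and in the authors' scaling the members' falls numbered 8.

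**Figure D1:**
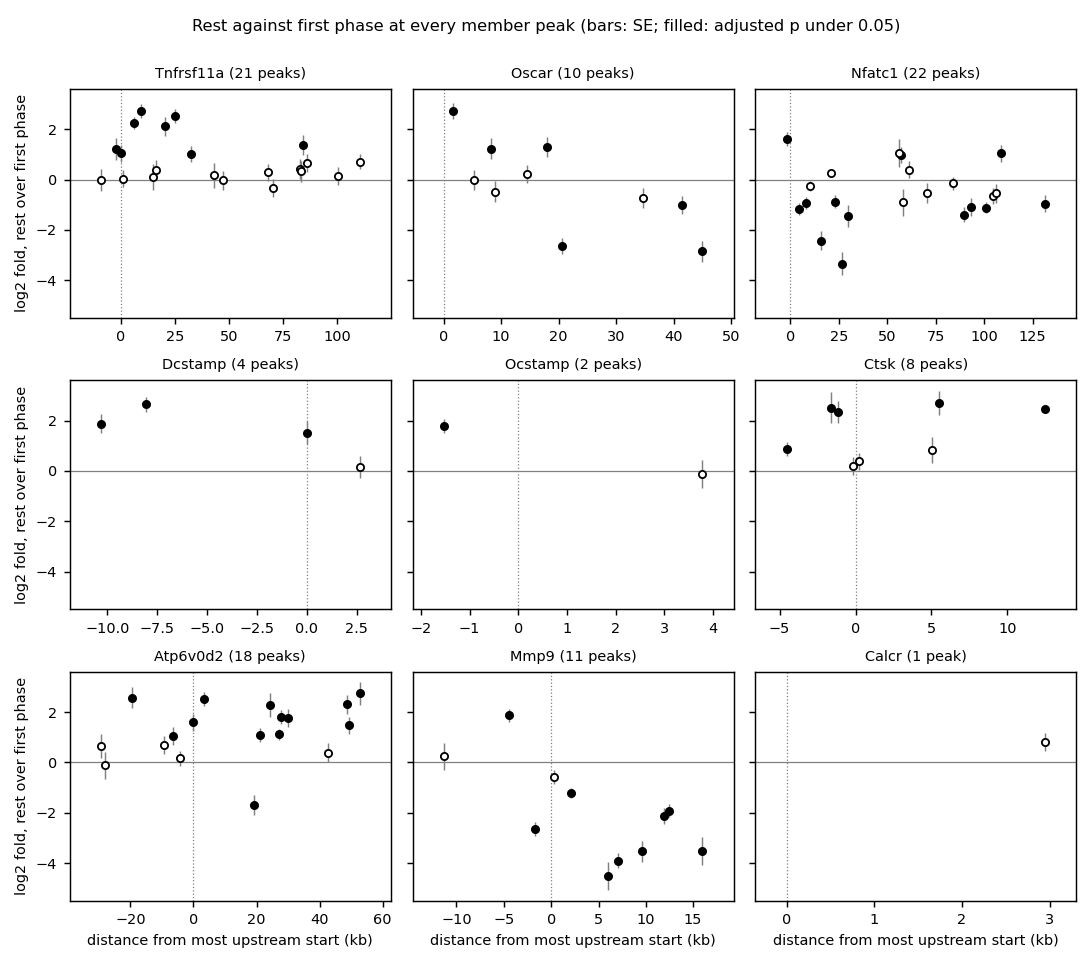
Log2 difference between the rest and first phases (vertical axis) at all 97 peaks against distance in kb from the most upstream named start of each gene (horizontal axis), with standard errors; filled points have an adjusted p under 0.05. The points of Atp6v0d2, Tnfrsf11a, Ctsk and Dcstamp that pass lie above 0 apart from 1 of Atp6v0d2, and those of Mmp9 lie below 0 apart from 1.

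Among the receptors, Tnfrsf11a gained accessibility at its start and along its first introns. The RefSeq promoter table (GRCm38.p6, the same assembly as mm10) matched 5 of the 10 genes (Tnfrsf11a, Ctsk, Oscar, Calcr and Acp5). The 250 bases before the Tnfrsf11a start, on the plus strand at chr1:105780473-105780722, lie wholly within its start peak and are shown because this peak is open in every phase. They hold 73.6% G and C and 31 CG pairs, printed in capitals, where the median of 32851 promoter windows is 52.4% and 6 pairs.

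Tnfrsf11a: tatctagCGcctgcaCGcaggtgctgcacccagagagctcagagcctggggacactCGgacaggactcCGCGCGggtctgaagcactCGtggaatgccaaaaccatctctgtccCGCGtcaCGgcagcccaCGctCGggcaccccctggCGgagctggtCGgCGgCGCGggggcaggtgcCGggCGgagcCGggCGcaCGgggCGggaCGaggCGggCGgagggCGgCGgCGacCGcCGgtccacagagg

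The start peak (chromosome 1, 105780421 to 105780820) read 5.89, 5.97, 4.32 and 4.99 in first-phase A1, A2, B1 and B2, and 6.19, 6.26, 5.92 and 6.28 in the rest phase. The rest-phase libraries were high except that B1 (5.92) lay below first-phase A2 (5.97), so the phases touched. The difference was 1.05 (SE 0.35, limma adjusted p = 0.0268), and it missed the threshold in 8 of 16 alternative settings, with 0.68 (adjusted p = 0.137) without first-phase B1. The largest rise lay 9438 bp downstream, in an intron at 105790156 to 105790555, where the levels went from 6.06, 5.70, 5.73 and 5.11 to 8.56, 8.47, 7.94 and 7.92. All rest-phase libraries there were above all first-phase libraries, by 2.73 (SE 0.26, limma adjusted p = 4.0e-06). Rises of 2.12 to 2.52 stood at 3 further intronic peaks, 6262, 20513 and 24900 bp downstream.

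Oscar, the costimulatory receptor gene, was mixed. Its peak nearest the start, 1647 bp downstream (chromosome 7, 3614039 to 3614438), read 4.07, 1.50, 3.20 and 3.21 in the first phase and 6.20, 6.14, 5.73 and 5.57 in the rest phase. The groups did not overlap, and the rise was 2.72 (SE 0.31, limma adjusted p = 1.5e-05). The largest fall, 45024 bp downstream and between genes, went from 4.51, 5.70, 5.35 and 5.83 to 2.14, 1.94, 3.12 and 3.21, a difference of -2.85 (SE 0.42, limma adjusted p = 1.1e-04). The other rises lay 8305 and 17935 bp downstream (1.22, limma adjusted p = 0.034, and 1.29, limma adjusted p = 0.016). By the annotation the first lies between genes and the second in an intron. Since the first is nearer the start and between genes, that intron need not be one of Oscar. Peaks farther out are assigned to Oscar by its start being the nearest. The other falls lay 20529 and 41497 bp downstream (-2.64 and -1.01).

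Nfatc1, the transcription factor at the head of the osteoclast programme, had more falls than rises. The tables name 3 starts for it on chromosome 18, of which the second lies 4898 bp downstream of the first. The peak over that second start (80708036 to 80708435) was high in every phase, with 8.50, 8.45, 8.07 and 7.98 in the first phase and 6.86, 6.85, 7.22 and 7.41 in the rest phase. The groups did not overlap, and the difference was -1.17 (SE 0.22, limma adjusted p = 8.1e-04), or -0.69 (adjusted p = 0.467) in the authors' scaling. The peak 2010 bp upstream of the first start went the other way, from 5.89, 5.48, 6.34 and 5.96 to 7.48, 7.01, 8.01 and 7.78, a rise of 1.61 (SE 0.28, limma adjusted p = 3.7e-04). After quantile scaling these 2 peaks of one gene moved in opposite directions, and the rising one lies upstream of its start, not over it. Near the third start, the peak 2932 bp upstream of that start fell (-1.12, SE 0.21, limma adjusted p = 6.7e-04). The peak 319 bp past the third start did not pass (-0.64, SE 0.32, limma adjusted p = 0.130). The largest fall, in an intron 26588 bp downstream (80686084 to 80686483), went from 6.45, 6.65, 5.73 and 6.06 to 2.46, 2.32, 4.04 and 2.14, by -3.34 (SE 0.46, limma adjusted p = 6.4e-05), with rest-phase B1 the highest of its phase and still below every first-phase library.

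**Figure D2:**
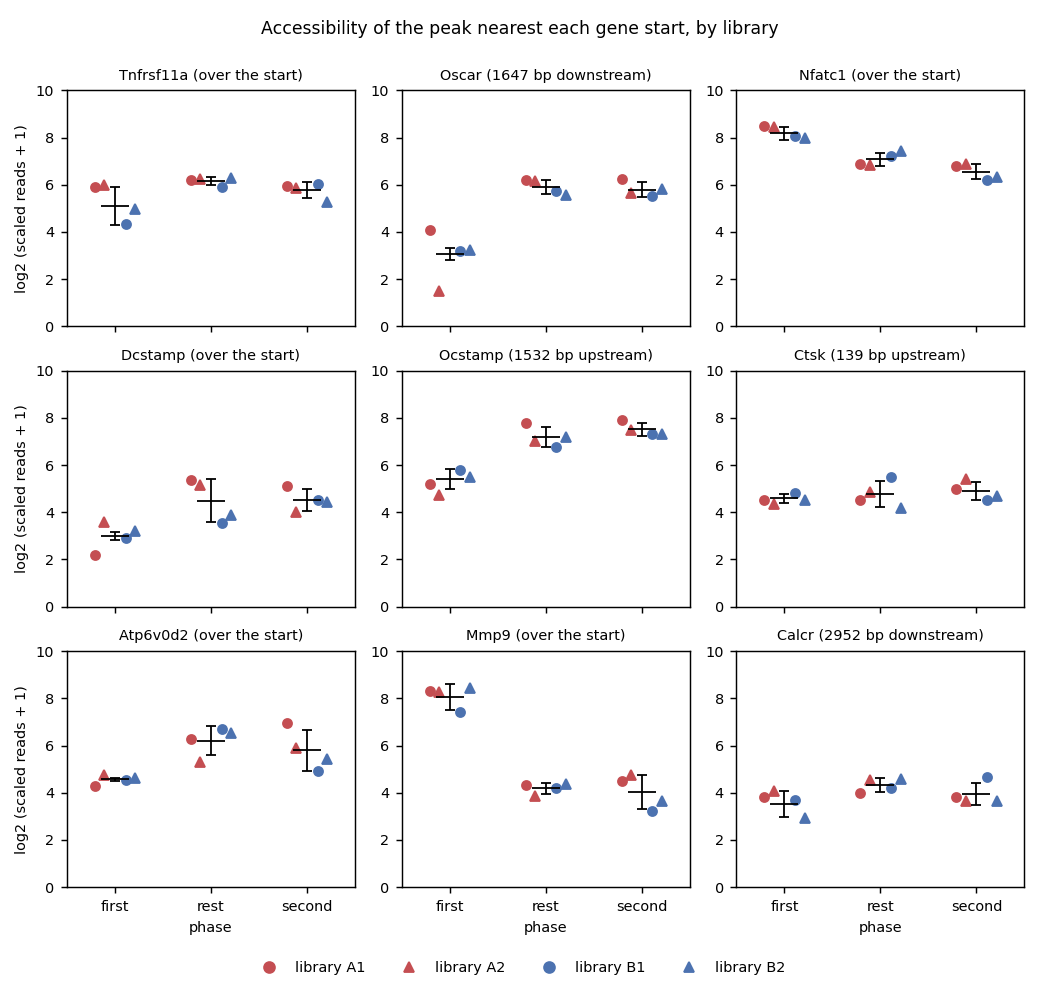
Log2 (scaled reads + 1) at the peak nearest a start of each of the 9 genes (vertical axis) by phase (horizontal axis); each point is 1 library, and the black marks are the mean and SD over 3 samples in the first phase and 4 in the others. Oscar and Ocstamp sit higher in the rest and second phases than in the first, Mmp9 and Nfatc1 lower, and Ctsk and Calcr overlap between phases.

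The fusion genes gained accessibility. Dcstamp, which encodes the membrane protein needed for precursor cells to merge, rose at 3 of its 4 peaks. Its start peak (chromosome 15, 39745660 to 39746059) was low in the first phase, at 2.20, 3.58, 2.92 and 3.21, and reached 5.35, 5.17, 3.53 and 3.90 in the rest phase. The A libraries were high and B1 (3.53) lay below first-phase A2 (3.58). The rise was 1.53 (SE 0.46, limma adjusted p = 0.0165) and did not pass without the rest-phase A libraries (0.63, adjusted p = 0.249). A peak 8065 bp upstream rose from 5.06, 3.58, 4.91 and 5.21 to 7.91, 7.68, 7.14 and 7.22, with no overlap, by 2.65 (SE 0.29, limma adjusted p = 9.4e-06). Ocstamp, its partner in fusion, rose at the peak 1532 bp upstream of its start (chromosome 2, 165401937 to 165402336) from 5.21, 4.75, 5.78 and 5.48 to 7.79, 7.04, 6.79 and 7.20. These groups were also separate, by 1.79 (SE 0.29, limma adjusted p = 2.6e-04).

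Ctsk, which encodes cathepsin K, the protease that digests bone collagen, rose around its start but not at it. The 250 bases before the start, on the plus strand at chr3:95498960-95499209, are shown as the contrast to Tnfrsf11a: 158 of them lie in the start peak, they hold 43.2% G and C, and they have 0 CG pairs to print in capitals.

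Ctsk: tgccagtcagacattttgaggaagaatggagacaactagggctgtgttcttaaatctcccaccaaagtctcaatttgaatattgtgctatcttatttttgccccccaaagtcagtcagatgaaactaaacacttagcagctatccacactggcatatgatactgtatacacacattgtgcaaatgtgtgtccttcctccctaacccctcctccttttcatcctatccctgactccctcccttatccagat

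Neither of these 2 promoter windows held, on either strand, TGANTCA (AP-1), TGGAAA (NFAT), AGGAAGT (PU.1), CACGTG or CATGTG (both E-box forms bound by MITF), which occur in 6.75%, 18.6%, 7.69%, 6.02% and 12.3% of all promoter windows of this length. Of the other members with a window, Oscar held TGGAAA 2 times (249 and 82 bases before its start) and CATGTG (6 bases before), 1 of 3 Acp5 windows held TGGAAA and CATGTG (117 and 90 bases before), and the 2 Calcr windows held none of these motifs. No base of the Oscar, Acp5 and Calcr windows lay in a member peak. Windows and motif positions follow the RefSeq starts, which for Oscar and Ctsk differ from the starts used for peak distances. At the start peak of Ctsk (chromosome 3, 95498718 to 95499117) the levels were 4.51, 4.34, 4.82 and 4.51 in the first phase and 4.54, 4.86, 5.51 and 4.20 in the rest phase. These overlapped, with a difference of 0.19 (SE 0.35, limma adjusted p = 0.708).

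Away from the start, 4 Ctsk peaks rose by 2.34 to 2.72 on the log2 scale. The largest rise, in an intron 5483 bp downstream (95504739 to 95505138), went from 2.75, 2.81, 3.54 and 2.32 to 4.98, 4.52, 6.29 and 6.30, by 2.72 (SE 0.48, limma adjusted p = 4.7e-04). The most open of the 8 peaks lay past the gene, 12510 bp downstream, and went from 6.77, 6.80, 6.96 and 7.00 to 9.33, 9.24, 9.20 and 9.09, a rise of 2.47 (SE 0.16, limma adjusted p = 3.9e-07). At both, every rest-phase library exceeded every first-phase library. The peaks 1630 and 1178 bp upstream rose by 2.52 (SE 0.61, limma adjusted p = 0.0045) and 2.34 (SE 0.43, limma adjusted p = 5.7e-04). The first of these was singled out after its values were seen, because its rest-phase libraries split by group, with 5.23 and 4.24 in A and 7.06 and 6.87 in B against 4.07, 4.34, 3.38 and 2.32 in the first phase. Without the rest-phase B libraries its rise was 1.51 (adjusted p = 0.0559).

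**Figure D3:**
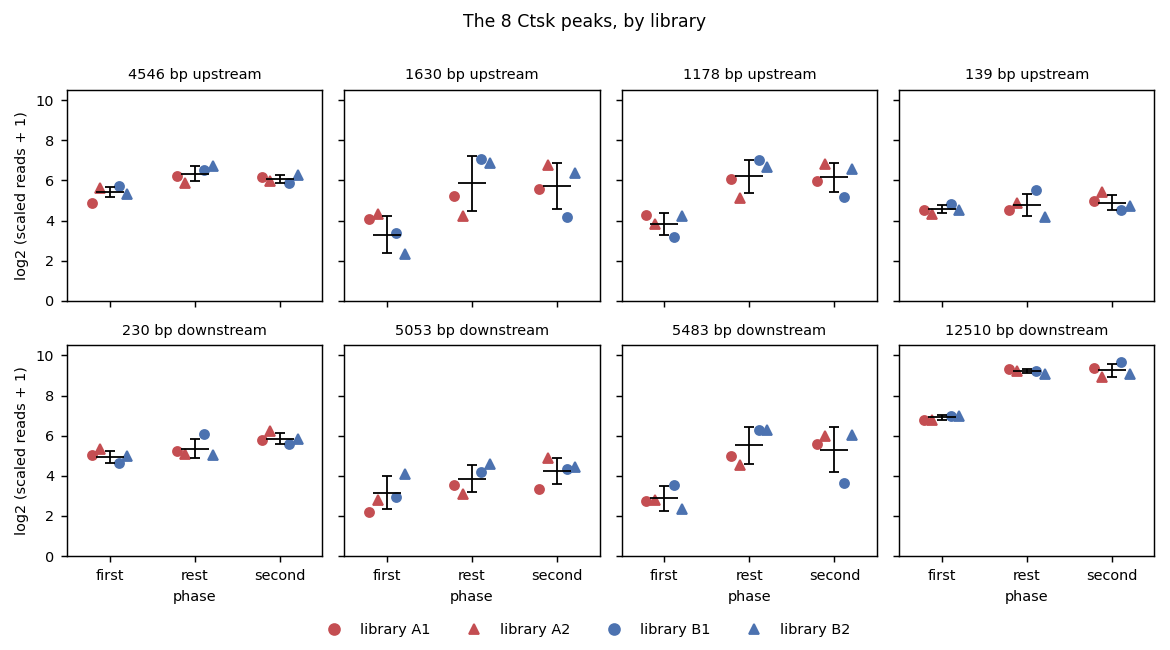
Log2 (scaled reads + 1) at each of the 8 Ctsk peaks (vertical axis) by phase (horizontal axis), with 1 point per library and the mean and SD of each phase in black. The peak 139 bp upstream of the start overlaps between phases. The peak 230 bp downstream overlaps between the first and rest phases, and its second-phase libraries (5.60 to 6.24) lie above the first-phase ones (4.64 to 5.35). The peak 12510 bp downstream is at 6.77 to 7.00 in the first phase and at 8.94 or above in all later libraries.

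Atp6v0d2, a subunit of the proton pump that acidifies the resorption pit and that also takes part in fusion, had the most rises. Its start peak (chromosome 4, 19922385 to 19922784) went from 4.30, 4.75, 4.54 and 4.64 to 6.29, 5.31, 6.71 and 6.53, a rise of 1.60 (SE 0.34, limma adjusted p = 0.0018) with no overlap. The largest rise was between genes, 52678 bp downstream (19869528 to 19869927), from 3.82, 2.81, 3.96 and 4.22 to 7.52, 7.33, 5.80 and 5.67, by 2.74 (SE 0.46, limma adjusted p = 3.1e-04). Here too the groups were separate, and the A libraries were the higher pair in the rest phase. Its single fall, in an intron 19124 bp downstream, was -1.69 (SE 0.40, limma adjusted p = 0.0038) and -0.97 (adjusted p = 0.151) in the authors' scaling.

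Mmp9 moved against the other resorption genes. It encodes gelatinase B, a matrix protease that osteoclasts secrete and that neutrophils store in granules. Of 4 starts named for it, the one 7439 bp downstream of the first carries the start peak (chromosome 2, 164947867 to 164948266), which was among the most open first-phase peaks of the list, at 8.32, 8.25, 7.44 and 8.45. In the rest phase it read 4.32, 3.85, 4.20 and 4.36, far below every first-phase library, a difference of -3.91 (SE 0.31, limma adjusted p = 1.0e-06). The largest fall, 6048 bp downstream of the first start (164946828 to 164947227), went from 7.55, 7.75, 6.86 and 7.84 to 2.60, 2.17, 4.91 and 2.14, by -4.51 (SE 0.57, limma adjusted p = 3.0e-05), with rest-phase B1 the highest of its phase. The peak 248 bp from the first start did not pass (-0.57, SE 0.28, limma adjusted p = 0.117), and the peak 4454 bp upstream rose from 6.14, 6.12, 5.73 and 5.63 to 8.12, 7.24, 7.68 and 7.61, by 1.87 (SE 0.26, limma adjusted p = 6.7e-05). The neutrophil list fell over the same libraries (10.62, 10.58, 10.36 and 11.32 against 7.45, 7.43, 8.43 and 8.15), and its part in the Mmp9 fall was not tested.

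**Figure D4:**
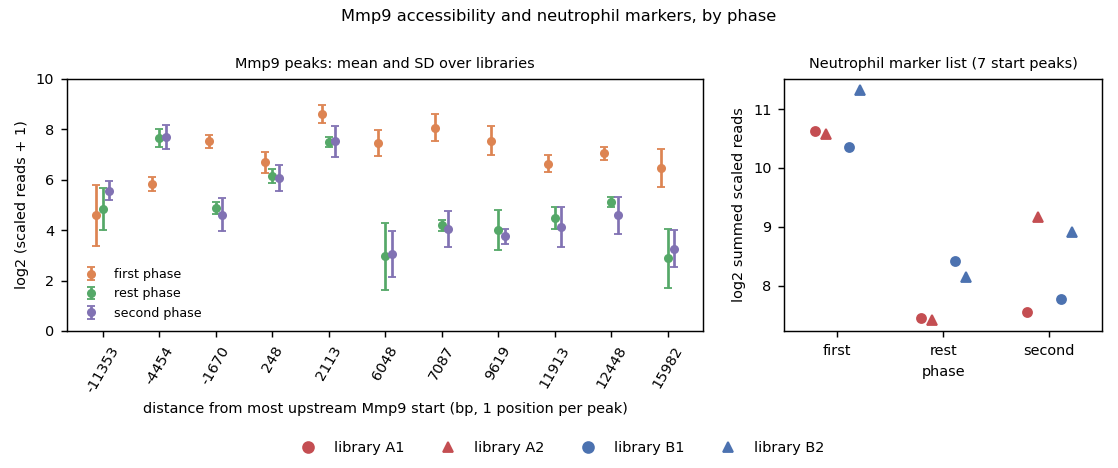
Left, mean and SD of log2 (scaled reads + 1) at the 11 Mmp9 peaks (vertical axis), ordered by distance in bp from the most upstream named start (horizontal axis), over 3 first-phase samples and 4 in each later phase. Right, log2 of the summed scaled reads at the start peaks of 7 neutrophil markers, with 1 point per library; first-phase libraries are at 10.36 or above, and first-phase Mmp9 is above the later phases at the 8 peaks that fell and below them at the peak 4454 bp upstream.

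The Calcr peak (chromosome 6, 3749623 to 3750022), 2952 bp downstream of a start, was low, at 3.82, 4.09, 3.68 and 2.92 in the first phase and 3.98, 4.54, 4.20 and 4.60 in the rest phase. The phases overlapped, and the difference of 0.81 (SE 0.37, limma adjusted p = 0.101) did not pass.

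The order of the start peaks differed between phases. In the first phase Nfatc1 (8.18 ± 0.26, SD, n = 3) and Mmp9 (8.06 ± 0.54) led and lay within their spread of each other, ahead of Ocstamp (5.41 ± 0.40), Tnfrsf11a (5.08 ± 0.81), Ctsk (4.58 ± 0.21), Atp6v0d2 (4.57 ± 0.06), Calcr (3.52 ± 0.53), Oscar (3.06 ± 0.24) and Dcstamp (3.01 ± 0.18). In the rest phase Ocstamp (7.20 ± 0.42, SD, n = 4) and Nfatc1 (7.09 ± 0.27) led, followed by Atp6v0d2 (6.21 ± 0.63), Tnfrsf11a (6.16 ± 0.17) and Oscar (5.91 ± 0.31), and then by Ctsk (4.78 ± 0.56), Dcstamp (4.49 ± 0.91), Calcr (4.33 ± 0.29) and Mmp9 (4.18 ± 0.23). Neighbours within each of these last 2 sets differed by less than their spread. Mmp9, taken at the peak over its start 7439 bp downstream of the first, went from the second place to the last. Its peak 248 bp from the first start, which did not pass, had a first-phase mean of 6.68 and a rest-phase mean of 6.13. The place of Mmp9 thus depends on which of its starts is taken. In the second phase the means were 7.52 for Ocstamp, 6.56 for Nfatc1, 5.80 for Oscar, 5.79 for Atp6v0d2, 5.77 for Tnfrsf11a, 4.90 for Ctsk, 4.52 for Dcstamp, 4.03 for Mmp9 and 3.94 for Calcr.

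For each start peak that passed, the start-region pattern most like it over the 12 libraries, among 14356 genes, was named as a description. The libraries share phase and depth, and 14356 genes were searched. Nfatc1 was nearest to Rybp (Pearson r = 0.992), Mmp9 to Pik3cd (0.988), Oscar to Speg (0.985), Ocstamp to Naa80 (0.980), Dcstamp to 2310043L19Rik (0.946), Atp6v0d2 to Atl3 (0.923) and Tnfrsf11a to Pid1 (0.888).

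The wider pathway was read through 6 lists of other osteoclast genes. Distances and starts in this paragraph refer to the named start nearest each peak, which need not be the most upstream. Repressors of osteoclast formation had 62 rises and 23 falls among 216 peaks (median 0.36), with Irf8 on both sides. A peak 19966 bp upstream of a named Irf8 start rose by 2.55 (limma adjusted p = 3.3e-04). Another, 560 bp past a different named start of the gene, fell, at -3.12 (limma adjusted p = 0.0010). Genes of fusion and adhesion had 55 rises and 38 falls of 181 (median 0.15). Among them a peak 44226 bp past a named start of the kinase gene Src rose by 3.20. A peak over a named start of the adhesion receptor gene Itgb3 fell, at -3.05. Receptors and signalling genes had more falls than rises, 65 against 43 of 217 (median -0.17). A peak 1558 bp upstream of a Map3k14 start was up by 3.92, and 1 lying 4196 bp upstream of a Tnfrsf1a start was down, at -4.09. Transcription factors that promote osteoclasts had 42 rises and 50 falls of 246 (median 0.12). There was a fall 3490 bp upstream of a start of Spi1, which encodes PU.1 (-4.12), and a rise 48793 bp past the start of Fos (3.06). The acid and resorption list had 33 rises and 26 falls of 158 (median 0.11). In it a peak 1456 bp upstream of a start of Atp6v1c1, another pump subunit gene, rose by 2.46. A peak 8309 bp upstream of a start of Car2, the carbonic anhydrase that supplies protons, fell, at -4.82. The stromal list of RANKL, its decoy and M-CSF had 7 rises and 5 falls of 32 (median -0.11), and a peak near the start of Tnfsf11, which encodes RANKL, fell, at -2.77 (limma adjusted p = 8.4e-04). Of all peaks 38.8% were called, 19.8% higher and 18.9% lower. The shares called for the acid and resorption list (37.3%), the promoting transcription factors (37.4%), the stromal list (37.5%) and the repressors (39.4%) lay near that background, although the repressors had 28.7% higher and 10.6% lower. Receptors and signalling had 49.8% called, and fusion and adhesion 51.4% (30.4% higher and 21.0% lower).

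Stimulation with IFN-γ and LPS was read from the second phase against the rest phase. With all libraries, 0 of the 97 peaks passed limma's adjusted p of 0.05, as did 0 of all peaks (0%), and 10 member peaks and 15966 of all peaks had an unadjusted p under 0.05. With libraries A1 and B1 left out, a choice made after seeing the data, 6 member peaks rose and 15 fell (21.6% called, against 15.2% of all peaks, of which 9.14% higher and 6.11% lower). Without A2 and B2 instead, 0 rose and 0 fell. Other marker lists also differed in A2 and B2. The neutrophil list summed to 9.17 and 8.91 there, against 7.43 to 8.43 in the rest phase. The T and NK cell list summed to 7.64 and 7.35, against 8.29 to 8.72. Genes within a list did not move together. Camp read 8.54 and 8.36 in A2 and B2, against 5.51 to 7.06 in the rest phase. S100a8 (7.16 and 6.68) lay within its rest-phase range of 6.16 to 7.17, and Elane (4.55 and 3.49) below its range of 4.60 to 4.98. Cd3d was lower (7.17 and 6.68, against 8.11 to 8.50) and Ncr1 higher (5.42 and 5.61, against 3.36 to 4.74). The summed macrophage list, at 11.24 and 11.25, lay within its rest-phase range of 10.93 to 11.28. In that list Csf1r was higher (9.48 and 9.67, against 7.74 to 8.20) and C1qa lower (5.60 and 5.52, against 6.48 to 6.91). The part of these other cell types in the second-phase differences was not tested.

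The largest rise without A1 and B1 was at Tnfrsf11a, the RANK gene, in a peak between genes 83367 bp downstream of its start (chromosome 1, 105864085 to 105864484). The rest-phase libraries read 4.50, 4.32, 3.36 and 3.21, whereas second-phase A1, A2, B1 and B2 read 4.21, 6.71, 4.80 and 7.08. A2 and B2 were above every other library, and the difference without A1 and B1 was 3.14 (SE 0.44, limma adjusted p = 0.0013), against 1.91 (adjusted p = 0.422) with all 4. Rises also passed at Tnfrsf11a 16303 and 84218 bp downstream (1.68 and 1.22), with falls 6262 and 32590 bp downstream (-0.77 and -1.48).

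Atp6v0d2 had 7 falls and 1 rise in that comparison. The largest fall was at the same peak, 52678 bp downstream, that had the largest rise in the rest phase. Second-phase A1 and B1 read 7.36 and 7.33 there, while A2 and B2 read 4.09 and 4.78, below the rest-phase range of 5.67 to 7.52, for a difference of -2.20 (SE 0.53, limma adjusted p = 0.0181). Nfatc1 had 6 falls and 1 rise, among them the peak 2010 bp upstream of its first start, where A1 and B1 read 7.42 and 7.23, and A2 and B2 6.59 and 5.97 (-1.26, SE 0.29, limma adjusted p = 0.0149). Oscar had 1 rise, 34697 bp downstream (1.39). No peak of Ctsk passed. In the lists of other osteoclast genes 0 peaks passed with all libraries. Without A1 and B1, where 15.2% of all peaks were called, the acid and resorption list had 23 rises and 9 falls (20.3% of 158 peaks called), receptors and signalling 29 and 11 (18.4% of 217), promoting transcription factors 28 and 16 (17.9% of 246), and repressors 20 and 17 (17.1% of 216). Fusion and adhesion had 21 and 18 (21.5% of 181) and the stromal list 6 and 1 (21.9% of 32). The phase comparisons share the rest-phase libraries, so a rise in one and a fall in the other are not separate evidence.

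**Figure D5:**
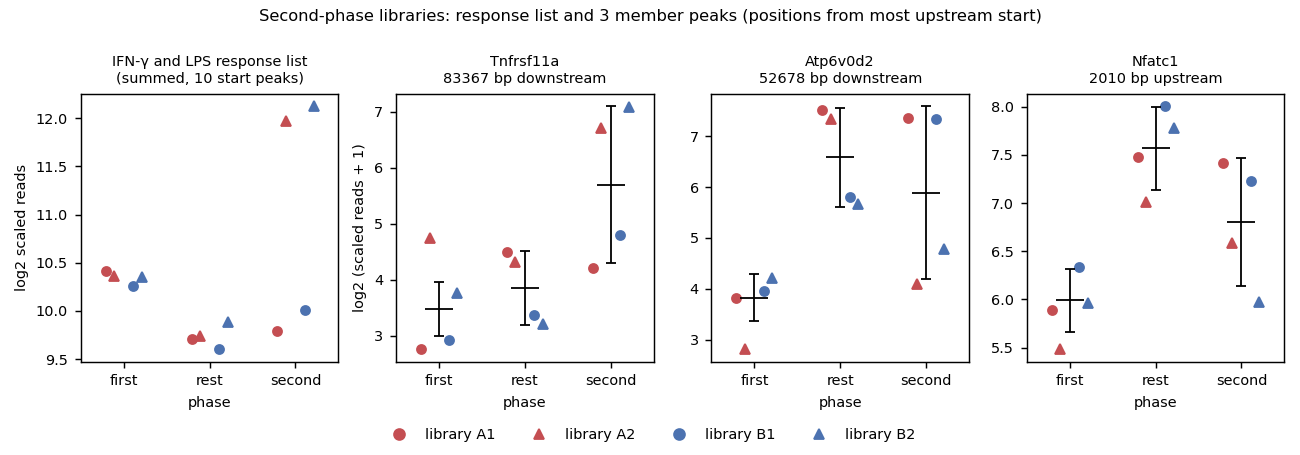
By phase (horizontal axis) and library (points), the log2 summed scaled reads at the start peaks of 10 IFN-γ and LPS response genes (first panel, vertical axis) and log2 (scaled reads + 1) at peaks of Tnfrsf11a, Atp6v0d2 and Nfatc1 (other panels, with the mean and SD in black). Second-phase A1 and B1 lie nearer to the rest phase than A2 and B2 in every panel, and A2 and B2 are higher for the list and Tnfrsf11a and lower for the others. The Tnfrsf11a and Atp6v0d2 peaks are those with the largest rise and fall of their genes without A1 and B1. The list was chosen after its values were seen, so in these panels the departure of A2 and B2 follows from the choice.

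The contrast of diabetic with control cells lies within the phases, as group A against group B. In the first phase 0 of 97 member peaks passed in the authors' deposited table, as did 0 of all peaks (0%), and 0 members had an unadjusted p under 0.05 there. Limma on the recovered reads also called 0, with 6 members at an unadjusted p under 0.05.

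In the rest phase the authors' deposited table called 50 of 97 member peaks higher in A and 0 higher in B (51.5%, against 39.8% of all peaks, 39.7% higher in A and 0.0929% in B). After quantile scaling, limma called 11 higher in A and 6 higher in B (17.5%, against 12.0% of all peaks, 6.48% higher in A and 5.56% in B), and with any 1 library left out it called 0 of the members and 0 of all peaks. The median A-over-B difference of all peaks was 1.31 on the log2 scale in the authors' scaling and -0.02 after quantile scaling, and the A libraries were the deeper ones; the part of depth was not tested.

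Peaks of a fusion, a receptor and a pump gene were higher in A by both routes. At the Dcstamp start the authors' deposited table lists log2 means of 6.17 in A and 3.33 in B, a shrunken fold of 2.25 and an adjusted p of 8.2e-04. Limma after quantile scaling gave 1.63 (SE 0.35, adjusted p = 0.0199) for Dcstamp, with libraries at 5.35 and 5.17 against 3.53 and 3.90. At Tnfrsf11a, 14978 bp downstream, the authors' deposited table has 5.59 and 2.58, a fold of 2.28 and an adjusted p of 0.0011. Limma gave 2.00 (SE 0.43, adjusted p = 0.0189) there, and 1.66 (SE 0.19, adjusted p = 0.0020) at the Atp6v0d2 peak 52678 bp downstream, where A read 7.52 and 7.33 and B 5.80 and 5.67.

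The 6 member peaks that limma called higher in B after quantile scaling were 3 of Ctsk, 2 of Atp6v0d2 and 1 of Oscar. The Atp6v0d2 peaks lay 27965 and 4398 bp upstream (-1.99 and -0.91, limma adjusted p = 0.0118 and 0.0190), and 4 others of that gene were higher in A. The peak assigned to Oscar lay 17935 bp downstream (-1.22, limma adjusted p = 0.0111), in an intron that need not be its own. For Oscar, 1 other peak was higher in A. Ctsk had 0 higher in A. Its peaks 1630 bp upstream, 1178 bp upstream and 5483 bp downstream were higher in B, with A-over-B differences of -2.28 (SE 0.33, limma adjusted p = 0.0047), -1.26 (SE 0.31, limma adjusted p = 0.0307) and -1.60 (SE 0.27, limma adjusted p = 0.0081). The first of these has a fold of -0.44 (adjusted p = 0.490) in the authors' deposited table. At the Ctsk start the authors' deposited table calls A higher, by 1.18 (adjusted p = 0.0319), and the limma value after quantile scaling was -0.16 (adjusted p = 0.846). Among the 8 Ctsk peaks, 2 were thus called higher in A in the authors' deposited table and 3 higher in B by limma, and they were different peaks.

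In the second phase the authors' deposited table called 47 member peaks higher in A and 0 in B (48.5%, against 26.7% of all peaks, of which 0.00429% of peaks higher in B). Atp6v0d2 had 12 of these, Nfatc1 10, Tnfrsf11a 9 and Mmp9 7, and the Atp6v0d2 start had the largest listed fold of the named peaks, 1.99 (adjusted p = 0.0242) in the authors' deposited table. Limma on the recovered reads called 0 in every scaling tried, with 2 members at an unadjusted p under 0.05 after quantile scaling. The median A-over-B difference of all peaks was 1.14 on the log2 scale in the authors' scaling and 0.007 after quantile scaling. The second-phase A libraries (17994363 and 10299555 reads in peaks) were deeper than the B libraries (3832347 and 6075270), and the part of depth was not tested. In this phase each group holds 1 library of either kind described above (A1 and B1 at the rest-phase level of the response list, A2 and B2 above it).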

How the data were processed

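ATAC-seq reads in peaks were analysed for 12 libraries. The submitters' processing notes name the build mm10 and, with no roles, DESeq2, DiffBind 3.14.0, MACS2, HOMER 5.1, Bowtie2 2.5.4, bedtools 2.28.0, deepTools 3.2.1 and Picard 3.2.0. The authors deposited 1 table per phase with the same 139999 peaks and, for each, the log2 of each group's mean normalized reads, a shrunken log2 fold, a p-value and an adjusted p-value. The deposited fold was turned to A over B where the table gives B over A.

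Each deposited mean averages 2 whole read numbers, each times its library's scaling factor. All means above 0 were solved for 1 pair of whole reads (largest relative miss 3.47e-09, tolerance 5e-09). This gave reads in 139557 peaks; 442 with a listed 0 were left out. Libraries were numbered by how much a read is worth in each, which says nothing of the labels' replicate numbers. Because each table was scaled on its own, phases were compared only on recovered reads scaled together: quantile scaling over the libraries compared, log2 (value + 1), limma 3.58.1 (R 4.3.3) with a trend, and Benjamini-Hochberg adjustment over all peaks tested, at 0.05. The scripts were tested on simulated data with 200 changed peaks planted among 139557. A planted 2-fold change was called at 19% of peaks for rest against first phase and 33% for second against rest phase. A 4-fold change was called at 99% in both. Far more peaks were called between the real rest and first phases, so these shares need not hold there. Within phases the authors' deposited calls were the main result and limma the alternative. Since the deposited unit is not a count, no count model was fitted.

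The members, the gene lists and the marker lists were chosen with earlier results of these data known. Peaks named for a gene are the one nearest a start, the largest rise and fall past the threshold per phase comparison, and the smallest deposited p per phase; the Ctsk peak 1630 bp upstream and the Tnfrsf11a peak 83367 bp downstream were added after their values were seen. Alternatives were other scalings, a pseudocount of 5, a minimum mean of 10 reads, limma voom, groups fitted separately, the first-phase pair counted as 2, and each library left out.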

Additional observations from a re-analysis of the deposited data

Results flagged for a closer look

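Among 70 groups of 4 libraries at 35 named peaks, 2 had a highest library whose gap to the next was above Dixon's critical value; chance flags about 1 in 20 such groups. At the Nfatc1 peak starting at 80686084, rest-phase B1 read 4.04 where the others read 2.14, 2.32 and 2.46 (gap over range 0.834). At the Mmp9 peak starting at 164946828, rest-phase B1 read 4.91 where the others read 2.14, 2.17 and 2.60 (gap over range 0.833). Both are the peak with the largest fall of their gene between the first and rest phases, and the same library is the high one at both.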

How the results depend on the processing

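Between the rest and first phases the members' rises stayed within 1.5 times of 36 in all 16 alternatives and the falls within 1.5 times of 22 in 15. The falls numbered 8 in the authors' scaling. Leaving out 1 library gave 29 to 33 rises and 19 to 21 falls. Against the rest phase, the second phase gave 0 calls in 15 alternatives, and 6 rises and 15 falls without A1 and B1. Of the rest-phase calls in the authors' deposited table (50 higher in A, 0 in B), limma gave 11 and 6 after quantile scaling, 18 and 8 when scaled to total reads, 60 and 1 in the authors' scaling, and 0 to 0 with 1 library left out, where 0 of all peaks passed too and a lone library was assumed to vary like the others. Of the second-phase calls (47), limma gave 0 in all 3 scalings, and 0 to 0 with 1 library left out.

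Some differences changed sign, among them 2 that the authors' deposited table calls. The Ctsk start (0.19 between the rest and first phases) ran from -0.052 (without rest-phase B1) to 0.38 with 1 library left out. Its rest-phase A-over-B fold of 1.18 (adjusted p = 0.0319) in the authors' deposited table was -0.16 by limma after quantile scaling, -0.018 scaled to total reads, and -0.86 to 0.57 with 1 library left out. The Nfatc1 peak 2010 bp upstream, A over B in the second phase, has a fold of 1.79 (adjusted p = 0.0242) in the authors' deposited table and by limma ran from -0.22 to 1.05 with 1 library left out. The Calcr peak, A over B, not called in the authors' deposited table (0.87 and 0.34), read -0.14 (quantile) and -0.32 (total reads) in the rest phase and -0.41 to 0.13 with 1 library left out, and -0.42, -1.03 and -0.96 to 0.10 likewise in the second. The cause was not tested. No paired analysis was possible because the deposited columns carry no replicate numbers. Depth limits the low peaks, and the shallowest library has 3832347 reads in peaks. The second-phase pairs varied by 15.7 (A) and 7.85 (B) times sampling noise.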
